A study of Danio rerio with 9 samples.

Results

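The paired-box transcription factor genes pax3a, pax3b, pax7a and pax7b were followed in RNA sequencing of individual zebrafish embryos aged about 25 hours. They were chosen by gene symbol, with earlier results of these data known, and make up 4 of the 22337 gene rows in the deposited tables. The comparison was between 5 embryos with coloboma (numbers 3, 4, 5, 6 and 7), a failure of the choroid fissure of the eye to close, and 4 normal embryos (numbers 3, 4, 6 and 7). All 9 came from an incross of fish carrying the alleles zic2aGBT133/+ and zic2bUW1127/+, were raised at 29 °C and received no treatment, and the labels give a phenotype but no genotype for any one embryo. The normal embryos carry the tag WT in the tables, and whether it stands for a genotype or for the normal eye is not stated. Each embryo was 1 library, so the spread within a group lies between embryos, and which clutches they came from is not stated in the labels. The study asks what zic2 does in periocular crest and in shaping that fissure.

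Pax3 and Pax7 proteins bind DNA through a paired domain and a homeodomain and keep progenitor cells in an undifferentiated state. They mark the dorsal neural tube and midbrain roof, the neural crest that leaves it, and the dermomyotome, the part of the somite that supplies muscle precursors. Teleost fish carry duplicates of both genes, and in zebrafish pax3a and then pax7a and pax7b are needed in the crest for xanthophores, the yellow pigment cells. In bulk RNA of whole embryos, fewer cells of a type and less RNA per cell cannot be told apart.

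Total counts ran from 20461180 (coloboma embryo 5) to 59233104 (coloboma embryo 6) in coloboma embryos and from 40951722 to 54681474 in normal embryos. Coloboma embryo 3 stood apart in lens genes: the mean log2 CPM of 16 lens genes, with the mean of the normal embryos subtracted, was -3.75 in it and 0.18 to 0.70 in coloboma embryos 4 to 7. None of these 16 genes passed by the test described next. The disrupted genes zic2a (log2 fold change 0.11 ± 0.11, SE) and zic2b (-0.03 ± 0.08) did not pass it either (edgeR adjusted p = 0.733 for zic2a and 0.908 for zic2b), and with no genotypes these levels checked no label.

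All 4 genes had lower mean levels in coloboma embryos, by 10.9% (pax7b) to 24.3% (pax7a), and none passed the test over all genes. Counts were compared with edgeR's quasi-likelihood test, which called 0.207% of the 21293 genes tested at a Benjamini-Hochberg adjusted p of 0.05 (17 higher and 27 lower in coloboma embryos, or 12 higher and 33 lower when scaled by library size alone). All 4 genes passed the filter on low counts. At an unadjusted p of 0.05, pax3a and pax7a were lower, 2 of 4 genes, where 4.9% of all genes tested were lower at that level and 6.78% higher. Of the other tools, DESeq2 called pax7a lower and no other of the 4 (adjusted p = 0.0431), where it called 1% of all genes lower and 1.75% higher, and limma called none of the 4, on voom values or on log2 TPM. The log2 fold changes of the 4 genes were negative, as were those of 49.9% of all genes tested, and stayed so in each of the 20 alternative settings tried, scalings included. Their median was -0.27, beside 0.00 over all genes tested. None lay on the chromosome of zic2a (9) or of zic2b (1): in the RefSeq gene table of assembly GRCz12tu, pax3a was on chromosome 2, pax3b on 15, pax7a on 11 and pax7b on 23.

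Of the 4, the smallest p was that of pax7a, which in zebrafish acts in crest cells bound for the xanthophore fate and is also transcribed in the dorsal midbrain and in muscle precursors. Its level, in TMM-scaled CPM (counts relative to library size), was 5.20, 4.62, 5.87, 4.94 and 4.68 in coloboma embryos 3, 4, 5, 6 and 7, against 6.30, 6.45, 6.38 and 7.50 in normal embryos 3, 4, 6 and 7. Every coloboma embryo lay below every normal embryo, a separation in this direction that 2.16% of all genes tested also had. Counts of pax7a were 119 to 368 per embryo, so that counting error alone was 5.21% to 9.17% of its value. Coloboma embryo 5, the nearest to the normal embryos, had the fewest (119). The means were 5.06 ± 0.505 CPM in coloboma embryos (SD, n = 5) and 6.66 ± 0.566 CPM in normal embryos (SD, n = 4), which gave a log2 fold change of -0.40 ± 0.11 (SE) and a 95% interval of -0.65 to -0.15. Over all genes this did not pass (edgeR adjusted p = 0.196; unadjusted p = 0.00472, a value that 2.4% of genes reached or went below). A two-sided exact permutation test on the CPM gave p = 0.0159, where splits of the 9 embryos into 5 and 4 allow no p below 0.00794.

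**Figure D1:**
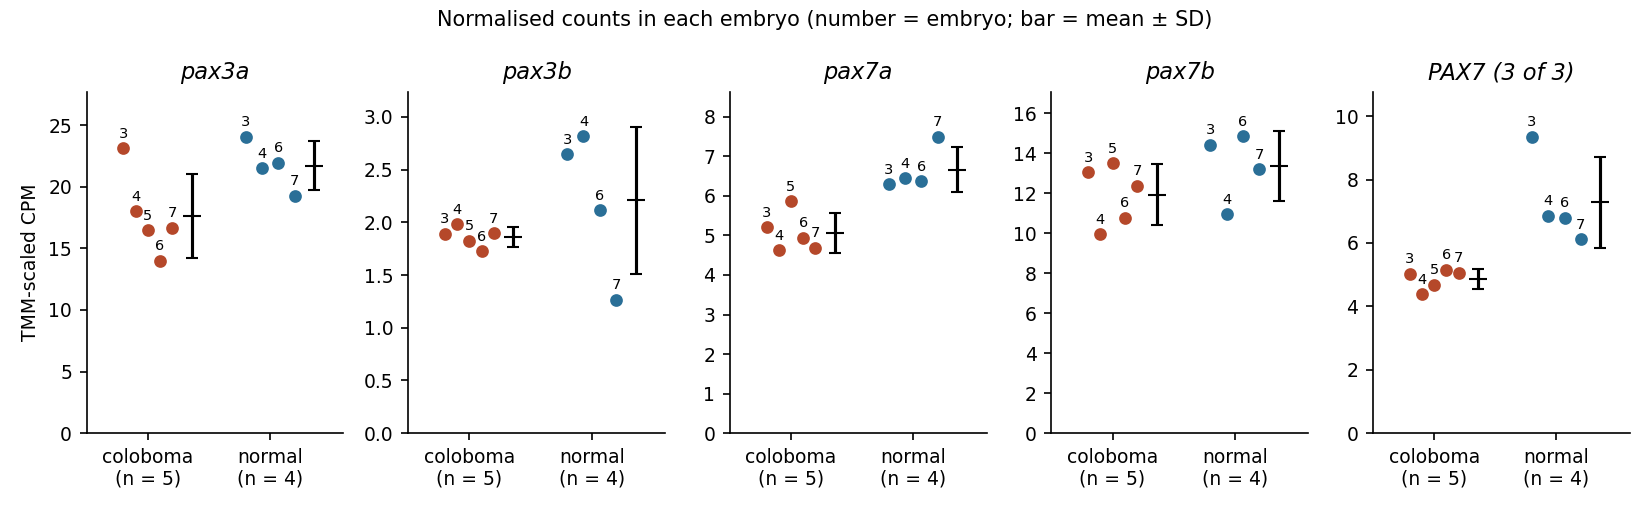
TMM-scaled CPM (vertical axes, each starting at 0) of the 4 genes and of the row labelled PAX7 (3 of 3) in each embryo, with coloboma embryos left and normal embryos right of each panel. Points carry the embryo number and bars give the mean ± SD. The groups separate for pax7a (at most 5.87 in coloboma and at least 6.30 in normal embryos) and for PAX7 (3 of 3), and overlap for pax3a, pax3b and pax7b.

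Its duplicate pax7b, which shares these sites of expression, differed less. It measured 13.0, 9.95, 13.5, 10.8 and 12.4 CPM in coloboma embryos 3, 4, 5, 6 and 7, against 14.4, 10.9, 14.8 and 13.2 CPM in normal embryos 3, 4, 6 and 7. The groups overlapped, with normal embryo 4 below 3 of the 5 coloboma embryos. The log2 fold change was -0.17 ± 0.12 (SE), with a 95% interval of -0.44 to 0.11 (edgeR adjusted p = 0.655). The exact permutation test on its CPM gave p = 0.222 (two-sided). The value moved with single embryos, to -0.11 without coloboma embryo 4 and -0.25 without normal embryo 4. Whether the duplicates differed in their response was tested as a ratio within each embryo, in TPM (transcript abundance scaled by length and to a fixed total). The log2 ratio of pax7a to pax7b was 0.29 ± 0.11 in coloboma embryos (SD, n = 5) and 0.57 ± 0.26 in normal embryos (SD, n = 4). The difference of -0.28 did not pass (two-sided exact permutation p = 0.0635; p = 0.190 after Benjamini-Hochberg adjustment over 3 ratios). The ratio ranged from 0.19 to 0.45 in coloboma and from 0.29 to 0.85 in normal embryos, so that the groups overlapped.

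A further row of the tables carries the label PAX7 (3 of 3). It is not one of the 4 listed genes and was singled out after its values were seen. No gene of that label was in the reference table, and it is described here only by its row. It measured 5.03, 4.39, 4.68, 5.15 and 5.06 CPM in coloboma embryos 3, 4, 5, 6 and 7, against 9.36, 6.86, 6.79 and 6.11 CPM in normal embryos 3, 4, 6 and 7. The groups did not overlap, as for 2.16% of all genes tested in this direction, and normal embryo 3 was the highest. The log2 fold change was -0.58 ± 0.14 (SE; 95% interval -0.88 to -0.28), with edgeR adjusted p = 0.134 over all genes, a value 0.958% of genes reached or went below, and a two-sided exact permutation p of 0.00794, the smallest the design allows. DESeq2 called this row lower (adjusted p = 0.0139), where it called 1% of all genes lower. Without normal embryo 3 the log2 fold change was -0.44 (edgeR adjusted p = 0.348).

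The length that the authors' TPM values imply for each gene (count divided by TPM, relative to pax7b in the same embryo) was 34.5% for pax7a and 50.1% for PAX7 (3 of 3), together 84.6%. It was 104% for pax3a and 79.4% for pax3b. The pax7a model was thus by far the shortest of the 4. Whether the row PAX7 (3 of 3) belongs to the same gene as pax7a was not tested, nor was whether they share reads. Reads shared by near-identical rows are divided by the estimator's model, so that the single values of both may be uncertain. With the counts of both rows summed, a step added after the values were seen, the level was 9.92 ± 0.591 CPM in coloboma embryos (SD, n = 5) and 13.9 ± 1.16 CPM in normal embryos (SD, n = 4). The log2 fold change was -0.49 ± 0.09 (SE; 95% interval -0.69 to -0.29; edgeR adjusted p = 0.0662). The sum passed the test in 3 of 20 alternative settings, namely DESeq2 (adjusted p = 0.000337), library size alone (edgeR adjusted p = 0.0287) and without coloboma embryo 5 (edgeR adjusted p = 0.0316).

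The gene pax3a, which acts early in the dorsal neural tube, the neural plate border and the crest, had the highest mean TPM of the 4. Its levels were 23.1, 18.0, 16.5, 14.0 and 16.7 CPM in coloboma embryos 3, 4, 5, 6 and 7, against 24.1, 21.5, 22.0 and 19.3 CPM in normal embryos 3, 4, 6 and 7. In 4 of the 5 coloboma embryos the level was below that of every normal embryo, while coloboma embryo 3 lay above 3 of the 4 normal embryos. The log2 fold change was -0.30 ± 0.13 (SE; 95% interval -0.59 to -0.01; edgeR adjusted p = 0.421), and the permutation test on CPM, exact and two-sided, gave p = 0.0794. On the TPM scale the means were 13.7 ± 1.96 in coloboma embryos (SD, n = 5) and 17.6 ± 1.27 in normal embryos (SD, n = 4), with a two-sided exact permutation p of 0.0238. TPM is not scaled for the make-up of the libraries. On log2 TPM the median log2 fold change over all genes tested was itself negative (-0.061 with 1 added, -0.079 with 0.1 added), beside 0.00 with TMM factors. Without coloboma embryo 3 the log2 fold change of pax3a was -0.41 (edgeR adjusted p = 0.196). That embryo is the one with few lens transcripts, and it also had the highest level of all 9 in the dorsal neural tube list (0.14 relative to the normal mean), the early crest list (0.17), the dermomyotome list (0.28) and the myogenic factor and muscle lists (0.84 and 0.93). The part of these in the result was not tested.

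Its duplicate pax3b had the lowest TPM of the 4, and 37 to 122 counts per embryo. Counting error alone was therefore 9.05% to 16.4% of its value. It measured 1.89, 1.98, 1.82, 1.72 and 1.90 CPM in coloboma embryos 3, 4, 5, 6 and 7, against 2.64, 2.81, 2.11 and 1.27 CPM in normal embryos 3, 4, 6 and 7. The coloboma embryos lay close together and within the range of the normal embryos, of which number 7 was lower than any coloboma embryo. The log2 fold change was -0.24 ± 0.22 (SE; 95% interval -0.72 to 0.24; edgeR adjusted p = 0.717), with p = 0.286 from the two-sided exact test on CPM. It depended on single normal embryos, at -0.43 without number 7, -0.14 without number 3 and -0.11 without number 4. The log2 ratio of pax3a to pax3b was 2.84 ± 0.21 in coloboma embryos (SD, n = 5) and 2.95 ± 0.45 in normal embryos (SD, n = 4), and the difference of -0.11 did not pass (two-sided exact permutation p = 0.667).

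**Figure D2:**
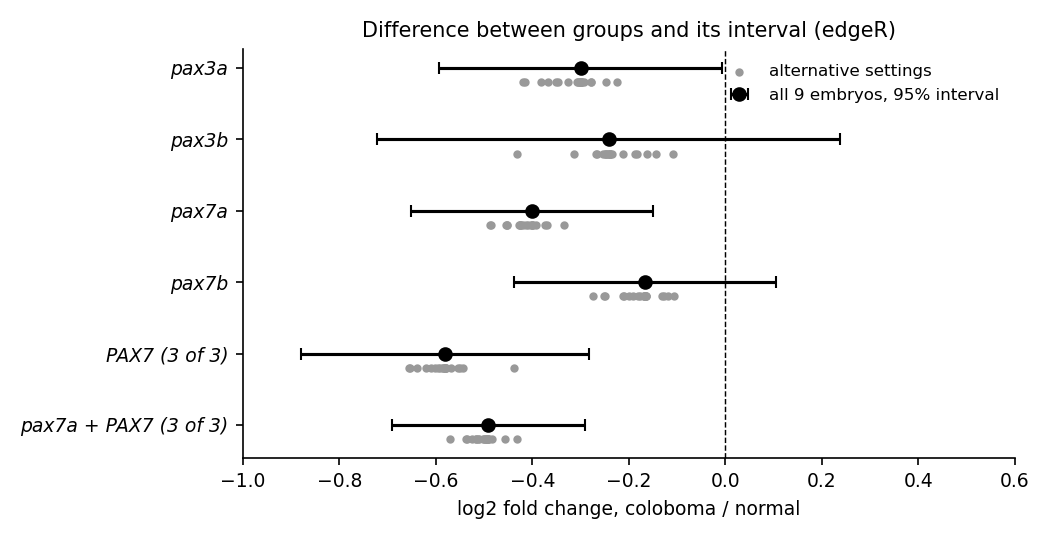
Log2 fold change of coloboma over normal embryos (horizontal axis) from the edgeR fit, with its 95% interval (black), and the values under 20 alternative settings (grey). Intervals of pax3b and pax7b include 0, that of pax3a ends at -0.01, and those of pax7a, PAX7 (3 of 3) and their sum end at -0.15, -0.28 and -0.29.

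Levels of different genes were compared in TPM only. In coloboma embryos the order was pax3a (13.7 ± 1.96), pax7a (11.9 ± 1.32), pax7b (9.82 ± 1.59) and pax3b (1.89 ± 0.130; SD, n = 5). In normal embryos it was the same, with pax3a at 17.6 ± 1.27, pax7a at 16.4 ± 2.17, pax7b at 11.2 ± 2.01 and pax3b at 2.34 ± 0.622 TPM (SD, n = 4). The place of pax7a in this order rests on its short model, 34.5% of the length implied for pax7b. Reads may also be divided between pax7a and PAX7 (3 of 3), so that this place is uncertain. The ranges of pax3a and pax7a overlapped in both groups. Those of pax7a and pax7b overlapped in coloboma embryos (10.5 to 14.1 and 8.23 to 12.3 TPM) and not in normal embryos (14.5 to 19.5 and 8.49 to 13.3 TPM), while pax3b lay below the other 3 in every embryo. By mean TPM over the 9 embryos, pax3a ranked above 70.1% of all genes in the table and pax3b above 28.3%.

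**Figure D3:**
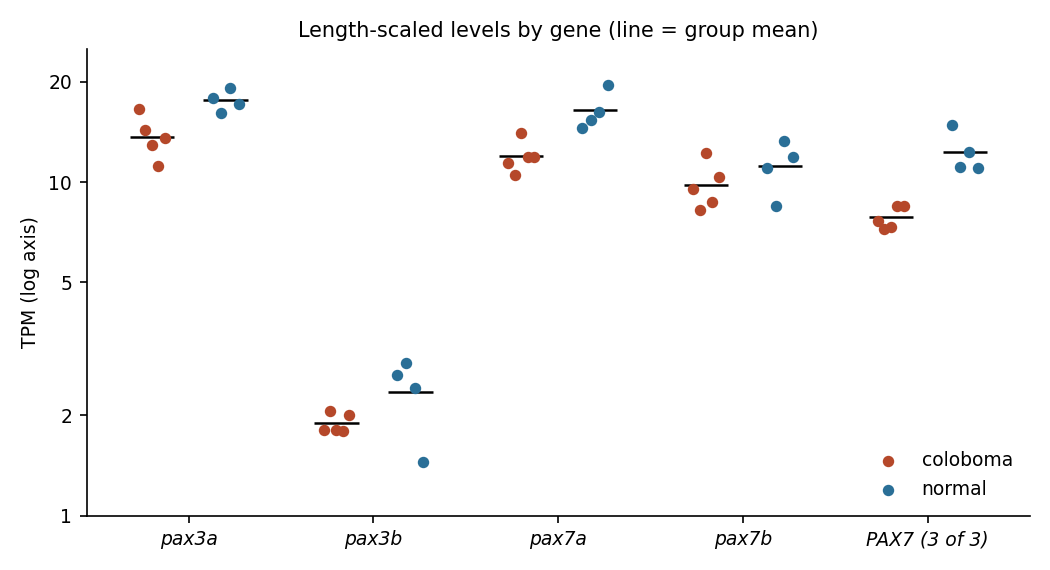
Length-scaled level in TPM (vertical log axis) of each gene and of the row PAX7 (3 of 3), with coloboma embryos left and normal embryos right at each gene. Each point is an embryo and each line a group mean. The pax3a, pax7a and pax7b points lie between 8.23 and 19.5 TPM, and pax3b lies between 1.45 and 2.86 TPM.

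Summed TPM of the 4 genes ran from 33.6 to 41.0 in coloboma embryos and from 42.8 to 51.1 in normal embryos. Summed CPM, which is scaled for the make-up of the libraries, ran from 31.4 to 43.3 in coloboma and from 41.2 to 47.4 in normal embryos and overlapped. No p is given for these sums, since the genes were chosen with earlier results known. The same limit holds for the p-values given for single genes and ratios. The make-up of the sum was close in both groups: pax3a took 36.7% ± 4.61 of the TPM, pax7a 32.0% ± 2.77, pax7b 26.2% ± 2.56 and pax3b 5.11% ± 0.603 in coloboma embryos (SD, n = 5). In normal embryos the shares were 37.1% ± 1.94 for pax3a, 34.5% ± 3.57 for pax7a, 23.4% ± 2.57 for pax7b and 5.01% ± 1.61 for pax3b (SD, n = 4). These shares rest on the same uncertain pax7a level. The log2 ratio of the pax7 genes to the pax3 genes was 0.48 ± 0.29 in coloboma embryos (SD, n = 5) and 0.46 ± 0.21 in normal embryos (SD, n = 4; two-sided exact permutation p = 0.921).

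The tissues in which these genes act were described with gene lists. In the dorsal neural tube list, of roof plate and dorsal progenitor genes, none of 16 genes passed the edgeR test, nor did any by DESeq2 or limma. Negative log2 fold changes were found in 13 of them, with a median of -0.21 beside 0.00 over all genes tested. At an unadjusted p of 0.05, 2 were lower, where 4.9% of all genes tested were lower. Members with the smallest p were the homeobox gene msx3 (row msxc, -0.30 ± 0.12, log2, SE), the ligand gene wnt10b (-0.56 ± 0.25), msx1a (row msxe, -0.55 ± 0.26) and the hindbrain progenitor factor atoh1a (-0.48 ± 0.27). The list's mean log2 level relative to the normal embryos was between -0.35 and -0.23 in coloboma embryos 4 to 7 and 0.14 in coloboma embryo 3, against -0.23 to 0.12 in normal embryos. In the dorsal neural tube list, as in pax3a, coloboma embryo 3 had the highest level of the 5, and without it the list median was -0.32.

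Of the 7 zic genes, which are also transcribed dorsally, 6 had negative values and none passed by edgeR, with a median of -0.13 (-0.05 without coloboma embryo 6 and -0.23 without coloboma embryo 3). The lowest was zic6 (-0.43 ± 0.11, log2, SE; edgeR adjusted p = 0.154). DESeq2 called zic6 (adjusted p = 0.0162), where it called 1% of all genes lower. The value of zic5, on the chromosome of zic2a, was -0.30 ± 0.11. Genes of the midbrain and tectum, where pax7 genes mark the roof, had a median of -0.05 over 15 genes, which ran from -0.16 without coloboma embryo 3 to 0.05 without normal embryo 6, and none passed by edgeR, DESeq2 or limma or at an unadjusted p of 0.05. The pair with the smallest p were her11 (0.60 ± 0.28), of the midbrain-hindbrain boundary, and meis2b (-0.31 ± 0.15), a homeobox gene of the tectum.

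Early crest genes had a median of -0.01 over 15 genes (-0.10 without coloboma embryo 3 and 0.01 without coloboma embryo 5), and none passed by edgeR, DESeq2 or limma. At an unadjusted p of 0.05, 1 was higher and 2 were lower, where 6.78% of all genes tested were higher and 4.9% lower. These were the transcription factor prdm1a (0.27 ± 0.10, log2, SE), the endothelin receptor ednrab (-0.43 ± 0.16) and the crest mesenchyme factor twist1a (-0.43 ± 0.16). The next was inka1a (row fam212aa, -0.19 ± 0.09). The log2 values of pax3a (-0.30) and pax7a (-0.40) were lower than the median of this list, and no test of that difference was made.

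Of the genes of differentiated xanthophores and their pteridine pigment, 8 of 11 fell (edgeR adjusted p under 0.05), where 0.127% of all genes tested were called lower. The list was drawn up with results of these embryos known, so the count is no independent evidence of direction. Of the 8, slc2a15b, on the chromosome of zic2b, lay close to the threshold (edgeR adjusted p = 0.04997). Not called were csf1ra (-0.41 ± 0.14, log2, SE), scarb1 (-0.17 ± 0.10) and pcbd1 (0.04 ± 0.10). The first enzyme of pteridine synthesis, gch2, averaged 139 ± 8.28 CPM in coloboma embryos (SD, n = 5) and 255 ± 31.0 CPM in normal embryos (SD, n = 4). Its log2 fold change was -0.88 ± 0.09 (SE; edgeR adjusted p = 0.00358), about -0.9 also for the sugar transporter gene slc2a11b (-0.90 ± 0.10), for aox5 (row aox3, -0.87 ± 0.12), an aldehyde oxidase gene, and for slc2a15a (-0.85 ± 0.10). The list median was -0.85, with pax7a at -0.40, pax3a at -0.30 and pax7b at -0.17 beside it. The list level was -0.70 to -0.58 in the 5 coloboma embryos, coloboma embryo 3 included, and -0.15 to 0.17 in the normal embryos. Unlike for pax3a, coloboma embryo 3 lay among the others here (-0.69), and the part of xanthophores in the pax values was not tested. The count of 8 was 3 without normal embryo 3 or coloboma embryo 4, and 5 without normal embryo 4 or 7 or coloboma embryo 6 or 7.

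Among genes listed for the other pigment cells, none of 15 melanophore genes passed by edgeR. DESeq2 called 4 of them lower, where it called 1% of all genes lower. The RNA was of whole embryos, eyes included, so the cells that gave these values cannot be told apart. At an unadjusted p of 0.05, 7 were lower and 1 was higher, where 4.9% of all genes tested were lower and 6.78% higher. The 1 higher was the melanosome transport gene mlpha (0.61 ± 0.23, log2, SE), which is named after its value was seen. The list median was -0.31. The smallest p were those of the melanosome receptor gene gpr143 (-0.69 ± 0.15, log2, SE; on the chromosome of zic2a), the melanin enzyme gene tyrp1a (-1.04 ± 0.26), the channel gene trpm1b (-0.48 ± 0.13) and the melanosome matrix gene pmela (-0.40 ± 0.11). Of 5 iridophore genes none passed by edgeR, DESeq2 or limma or at an unadjusted p of 0.05, with a median of -0.13 (-0.20 without coloboma embryo 7 and -0.06 without coloboma embryo 6).

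Lists drawn up for the somite derivatives had positive medians. The RNA was of whole embryos, so other tissues may have given part of these values, which was not tested. Dermomyotome and muscle precursor genes, 19 in all, had a median of 0.12 (-0.01 without coloboma embryo 3 and 0.20 without normal embryo 3), with positive values in 10 and negative values in 9. None passed by edgeR. At an unadjusted p of 0.05 none was lower and 4 were higher, where 4.9% of all genes tested were lower and 6.78% higher. These 4 were the homeobox genes six4b (0.45 ± 0.11, log2, SE) and six1b (0.42 ± 0.18) and their cofactors eya4 (0.54 ± 0.14) and eya1 (0.21 ± 0.09). Of them DESeq2 called six4b and eya4, where it called 1.75% of all genes higher. Among the negative values were those of lbx1a (-0.30 ± 0.15), lbx1b (-0.31 ± 0.17), lbx2 (-0.13 ± 0.15) and met (-0.13 ± 0.13), named after their values were seen. All 8 myogenic factor genes had positive values (median 0.44) and none passed by edgeR, DESeq2 or limma. Those with the smallest p were myod1 (0.68 ± 0.21), mef2ca (0.84 ± 0.28), myog (0.48 ± 0.17) and myf6 (0.57 ± 0.25). All 4 had an unadjusted p under 0.05, where 6.78% of all genes tested were higher at that level. In 1 of 20 alternative settings, with 1 embryo left out, mef2ca passed (edgeR adjusted p = 0.0308). The myogenic list median was 0.31 without coloboma embryo 3 and 0.56 without coloboma embryo 5. Its level was -0.08 to 0.84 in coloboma embryos and -0.15 to 0.22 in normal embryos, so that the groups overlapped.

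Differentiated muscle genes had positive values in 27 of 27 (median 0.62). At an unadjusted p of 0.05, 21 were higher and 0 lower, where 6.78% of all genes tested were higher at that level. The myosin heavy chain gene myhz1.2, from a family of near-identical copies between which reads can be split, rose (0.80 ± 0.13, log2, SE; edgeR adjusted p = 0.0490), 1 of 27 where 0.0798% of all genes tested were called higher, and DESeq2 called 14, where it called 1.75% of all genes higher. The myhz1.2 value did not pass in 16 of 20 alternative settings. The fast muscle genes mylpfb (0.85 ± 0.17), tnnt3a (0.61 ± 0.14) and pvalb2 (0.73 ± 0.17) did not pass by edgeR. The muscle list level was 0.24 to 0.93 in coloboma embryos, highest in number 3, and -0.30 to 0.35 in normal embryos. These levels overlapped between the groups, and their part in the pax7a value was not tested.

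**Figure D4:**
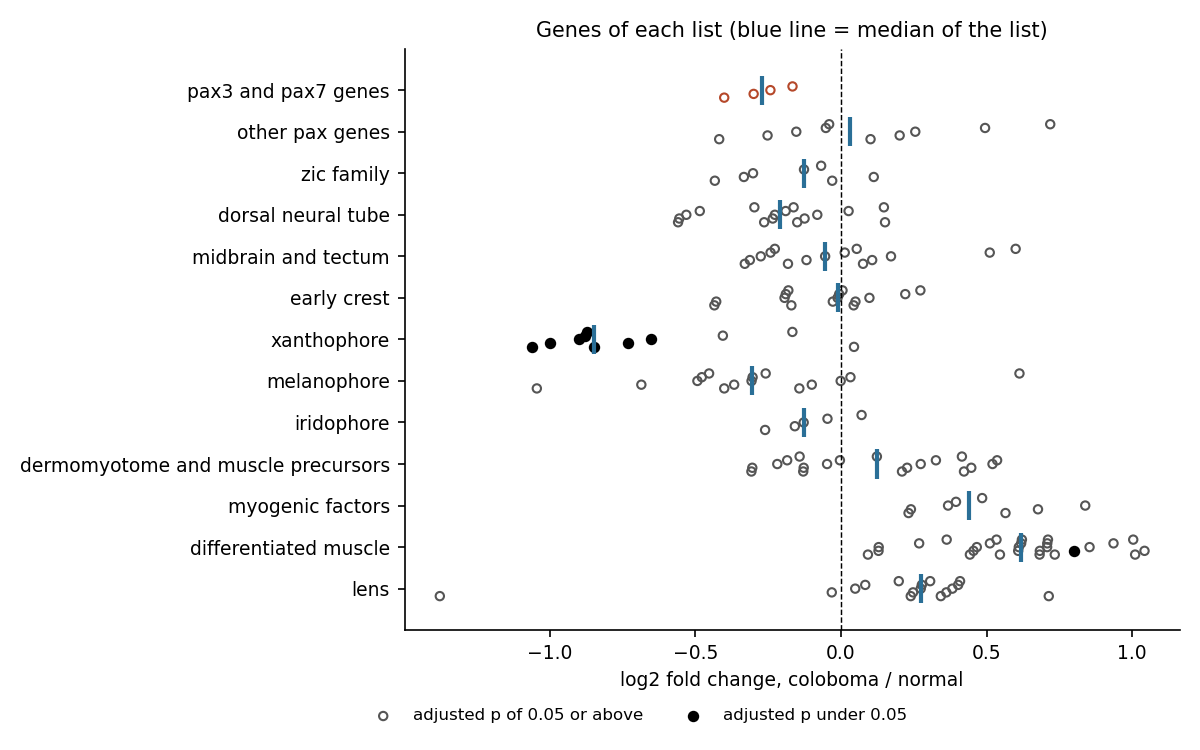
Log2 fold change of coloboma over normal embryos (horizontal axis) for the genes of each list (rows), with the median of each list as a blue line. Open points have an edgeR adjusted p of 0.05 or above and filled points one below it. The 4 pax3 and pax7 genes lie between -0.40 and -0.17 (median -0.27), beside medians of -0.31 for melanophore, -0.21 for dorsal neural tube, -0.85 for xanthophore and 0.62 for differentiated muscle genes.

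**Figure D5:**
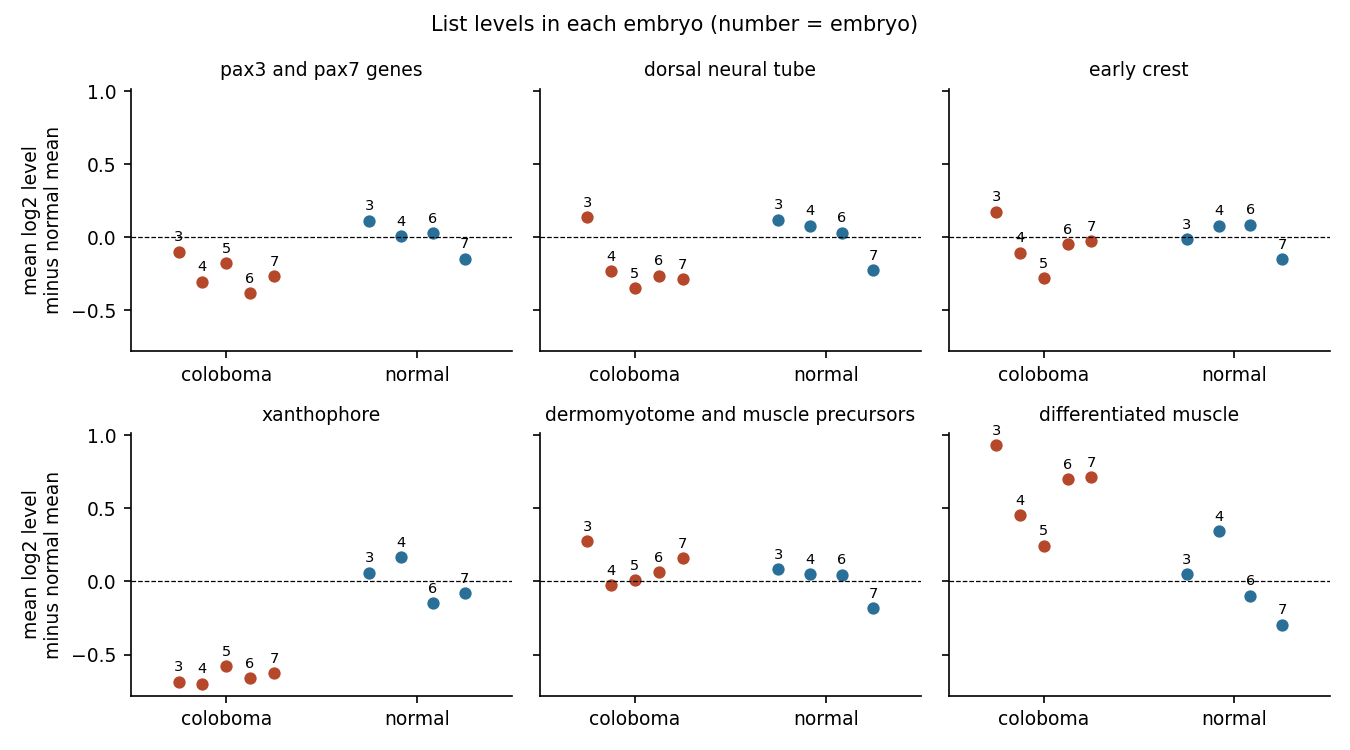
Mean log2 CPM of the genes of a list minus the mean of the normal embryos (vertical axes), by embryo, with coloboma embryos left and normal embryos right in each panel and embryo numbers beside the points. Xanthophore levels separate the groups (-0.70 to -0.58 in coloboma, -0.15 to 0.17 in normal embryos). In the dorsal neural tube panel, coloboma embryo 3 (0.14) lies apart from the other 4 coloboma embryos (-0.35 to -0.23).

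Within the pax family, the sclerotome genes pax1a and pax1b stood at the other end. Levels of pax1a averaged 4.58 ± 0.400 CPM in coloboma embryos (SD, n = 5) and 2.77 ± 0.454 CPM in normal embryos (SD, n = 4) and its log2 fold change was 0.72 ± 0.14 (SE). It did not pass by edgeR (adjusted p = 0.0953) and passed by DESeq2 (adjusted p = 0.00119), which called 1.75% of all genes higher. For pax1b the value was 0.49 ± 0.18 (edgeR adjusted p = 0.326), for the eye gene pax6b -0.42 ± 0.23 and for the pharyngeal and sclerotome gene pax9 0.20 ± 0.13. None of the 10 other pax genes tested passed by edgeR, and 5 had positive and 5 negative values. At an unadjusted p of 0.05, 2 were higher, where 6.78% of all genes tested were higher.

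Likeness of pattern was measured as the correlation of log2 CPM over the 9 embryos after subtracting each group's mean, searched over 13871 named genes of at least 1 CPM. The values are descriptions of these 9 libraries, and the highest of so many correlations over so few embryos are high whatever the genes. Closest to pax7a were ptprz1a (Pearson r 0.97, Spearman rho 0.85), TOMM6 (0.96 and 0.98) and ddah2 (0.96 and 0.93). Closest to pax7b were fnbp4 (0.94 and 0.93), nsmfb (0.94 and 0.95) and ssh1b (0.93 and 0.95). For pax3a they were ccni (0.97 and 0.98), jam2a (0.96 and 0.97) and calb1 (0.96 and 0.97), and for pax3b wdr91 (0.98 and 0.85), fzd4 (0.97 and 0.80) and SAC3D1 (0.97 and 0.73). Without the 2 embryos farthest from the median of the pax gene, the 12 correlations ran from 0.79 to 0.96. Among themselves the 4 genes were less alike, with r from -0.60 (pax3b with pax7a) to 0.41 (pax3a with pax3b).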

How the data were processed

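RNA of 9 single embryos was sequenced from libraries made with an Illumina TruSeq RNA kit, per the labels' protocols. Per the submitters' processing notes, build Zv9 was used, with Bowtie 1.1.1, RSEM 1.2.18 and CASAVA 1.8.2 among the tools; the gene annotation is not stated. The deposited estimated counts are whole numbers, taken to be expected counts rounded by the authors, since RSEM gives such counts; rounding them again changed 0 values. The deposited TPM values by the authors cover the same 22337 rows. The columns were matched to samples by label, and none was left over.

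Counts were fitted with edgeR 4.0.16 in R 4.3.3 after filterByExpr (minimum count 10) with TMM factors, and p-values were adjusted over all 21293 genes tested. Log2 fold changes are coloboma over normal, with SE and 95% interval from the F value. Single levels and ratios were compared by exact permutation of the embryos, two-sided. Counting errors cover counting only. Alternatives used limma 3.58.1 (log2 of TPM plus 1 or 0.1), DESeq2 1.42.0 and other scalings and filters; the steps were tested on simulated data. Named were the 4 genes, zic2a and zic2b, up to 4 genes of smallest p in each list, and the 3 genes most like each pax gene; 1 gene so named is not reported here. Of 173 list entries, 150 were matched by symbol, 12 by alias and 4 by a RefSeq synonym, and 7 were not matched. List levels use log2 of CPM plus 0.5. The genes and lists were chosen with earlier results of these data known. No protein or promoter sequences were used here. Counts of every pair of embryos within a group differed by more than sampling noise (chi-square per degree of freedom 26.8 to 78.5). The kit does not mark strand.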

Additional observations from a re-analysis of the deposited data

Results flagged for a closer look

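Of 44 groups of 4 or 5 embryos examined, 6 held an embryo far from the rest of its group, where chance gives about 1 in 20. The groups reuse the same embryos and are not independent, so that rate is only a rough guide. The pax7a level of normal embryo 7 was 7.50 CPM, against 6.30 to 6.45 CPM in the other 3 normal embryos. The log2 TPM ratio of pax7a to PAX7 (3 of 3) was 0.94 in coloboma embryo 5, the shallowest library, against 0.48 to 0.58 in the other 4 coloboma embryos. Coloboma embryo 3 lay apart in 3 list levels, all relative to the normal mean on the log2 scale. These were 0.14 for the dorsal neural tube list (-0.35 to -0.23 in the other 4 coloboma embryos), 0.074 for the zic family (-0.27 to -0.19) and -3.75 for the lens (0.18 to 0.70). In the dermomyotome and muscle precursor list, normal embryo 7 was at -0.18, against 0.05 to 0.08 in the other 3 normal embryos.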

How the results depend on the processing

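Over 20 alternatives the log2 fold changes stayed negative for each of the 4 genes, from -0.42 to -0.22 for pax3a, -0.43 to -0.11 for pax3b, -0.49 to -0.33 for pax7a and -0.27 to -0.11 for pax7b, and leaving out single embryos gave -0.41 to -0.22, -0.43 to -0.11, -0.45 to -0.33 and -0.25 to -0.11 in the same order. Of these, pax7a by DESeq2 passed the test (-0.41, adjusted p = 0.0431), while its other alternatives gave an adjusted p of 0.0702 to 0.422. The count of 44 genes called was 578 by DESeq2, 17 with the replicate block and 21 to 235 when single embryos were left out, highest without coloboma embryo 5; the cause was not tested. The log2 ratio difference of pax7a to pax7b was -0.37 to -0.18 without single embryos. Without normal embryo 6 (-0.37) the two-sided exact permutation p was 0.0357, which was not adjusted over the 3 ratios. For pax3a to pax3b the range was -0.26 to 0.10, positive without normal embryo 7. For the pax7 to the pax3 genes it was -0.07 to 0.12, and it also turned negative without coloboma embryos 3 and 5 (-0.0031). The replicate block gave -0.071, which repeats the low end of the range without single embryos. It is no separate result, since the block takes nothing from coloboma embryo 5. The zic2b value was -0.063 to 0.025 without single embryos, positive without normal embryo 6. Same-numbered embryos did not deviate together (correlations -0.07 to 0.07 over all genes), so the numbers were not taken as pairs. With the replicate block pax7a stood at -0.45 and pax3a at -0.29, and neither passed (edgeR adjusted p = 0.203 for pax7a). No normal embryo has the number 5, so that coloboma embryo 5 did not inform the fold changes of the block. Without that embryo and with no block, pax7a also stood at -0.45. The 8 xanthophore genes called were 3 with the block and 3 to 8 without single embryos. Of the 4 genes pax3b had the fewest counts (37 to 122 per embryo).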
